A study of Homo sapiens with 4 samples.

Results

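The 56 genes described here encode the machinery that copies DNA in S phase and the E2F factors that switch many of these genes on. They were taken by symbol from the deposited table of FPKM (fragments divided by the length of the transcript and by the mapped fragments of the library), which lists 23615 gene symbols, and each of the 56 had 1 entry. Values came from 4 poly-A RNA-seq libraries of unsorted cultures on day 14 of differentiation, 2 per group. Both groups came from RUES2, a human embryonic stem cell line, and both were induced with 100 ng/ml activin A, then 5 ng/ml BMP4 and 1 µM CHIR-99021 (an activator of Wnt/β-catenin signaling). In the CPC group, mesoderm was then taken through cardiac progenitor cells. The study's methods add 1 µM XAV-939, an inhibitor of Wnt/β-catenin signaling, on day 3 of this route in part of the experiments, and the labels of the CPC libraries do not say whether it was used in them. In the ECsXAV group, cells were first directed to hemogenic endothelium from day 2 with 200 ng/ml VEGF, 5 ng/ml bFGF and 10 ng/ml BMP4, and were given 2 µM XAV-939 from day 5. Each group is therefore a bulk culture from 1 cell line, and the cardiomyocytes were not sorted from the other cells.

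Before S phase, the origin recognition complex, CDC6 and CDT1 load the MCM2-7 helicase onto DNA, and geminin and DTL stop a repeat of this step in the same cycle. MCM10, CDC45 and GINS then turn the loaded helicase into a moving one, primase and the polymerases α, δ and ε make the strands, and the clamp PCNA with its loader RFC holds the polymerases on the template. Heart muscle cells leave the cell cycle around birth, while cardiomyocytes made from stem cells in culture still divide to some degree. The comparison of the groups asks how far the 2 routes to cardiomyocytes ended at the same level of this machinery.

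In both groups the cultures carried cardiomyocyte transcripts at high levels. TNNT2, which encodes cardiac troponin T, had 2453 and 2309 FPKM in ECsXAV and 2696 and 2988 FPKM in CPC, and all 10 cardiomyocyte markers were above the filter. Of the 10, 3 were higher in both ECsXAV libraries (25.4% of tested genes), 3 in both CPC libraries (24.4%), and 4 overlapped. MYH6 had 855 and 857 FPKM in ECsXAV beside 2070 and 1901 in CPC, while MYBPC3 had 401 and 381 beside 198 and 181. Of 10 endothelial markers, 7 were below a mean of 1 FPKM. Their sum was 27.6 and 28.9 in ECsXAV beside 25.2 and 23.7 in CPC, carried by EGFL7 and KDR (means 14.2 and 9.10 FPKM). CDH5, TEK, VWF, ESAM and EGFL7 were higher in both ECsXAV libraries than in both CPC libraries. So were 25.4% of tested genes and 28.7% of genes at 0.05 to 1 FPKM. The other 5 overlapped, and VWF had at most 0.0209 FPKM. Sums of markers of other cell types differed between the groups, but not every marker followed its sum. The summed FPKM of 10 stromal markers was 192 and 228 in ECsXAV beside 108 and 106 in CPC. Among them POSTN was higher in both CPC libraries and PDGFRA overlapped. The sum of 5 smooth muscle markers was 309 and 281 beside 168 and 192, carried by TAGLN and CNN1. By contrast LMOD1 and MYH11 were higher in both CPC libraries (ratios of ECsXAV over CPC 0.630 and 0.304), and ACTA2 overlapped. For 7 endoderm markers the sum was 36.8 and 30.7 beside 16.6 and 18.5. The 7 blood markers summed to 3.12 and 5.24 beside 0.587 and 0.207, and PTPRC was listed at 0 in all 4 libraries. The part of these cells in the results below was not tested. In bulk samples, fewer cycling cells and less RNA per cell cannot be told apart. The FPKM of weakly expressed single-transcript genes come in steps of 1 fragment, and the size of the steps put the depth of ECsXAV replicate 2 at about 47.9% of that of ECsXAV replicate 1, and the depth of the CPC replicates at about 87.1% and 75.9%. These steps also gave the approximate fragment numbers quoted for weak genes.

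Differences are given as CPC minus ECsXAV on log2(FPKM + 1), so a negative value is lower in CPC. The added 1 understates the change of weakly expressed genes, and for these the ratio of the group means of FPKM is given too. A gene was tested with limma when its mean FPKM over the 4 libraries was at least 1, and it passed the criterion with a Benjamini-Hochberg adjusted p under 0.05 over all 12398 tested genes and a change over 2-fold. For a single gene, the smallest two-sided p that an exact permutation test allows with 2 libraries per group is 0.33, and limma reaches lower values through a spread estimated over many genes together.

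Of the 56 members, 41 were tested. Among these, TK1, CDT1 and GINS3 had CPC means under 1 FPKM (0.776, 0.463 and 0.884) and reached the filter only through their ECsXAV values. TK1 alone passed the criterion, so the call is of a gene admitted by the group where it is high. It was lower in CPC, beside 1.44% of all tested genes that passed in this direction. No member passed as higher in CPC, beside 0.71% of tested genes, and none had an unadjusted limma p under 0.05 in that direction, beside 7.86%. At an unadjusted p under 0.05, 6 of the 41 were lower in CPC, beside 10.4% of tested genes. TK1 was also the only member with an adjusted p under 0.05 at any fold, a call made for 2.89% of tested genes, and the only one over 2-fold higher in ECsXAV on this scale, as were 2.76%. The median difference of the 41 was -0.12, and that of all tested genes was -0.0045. In 19 of the 41 both ECsXAV libraries were above both CPC libraries (25.4% of tested genes), and in 7 both CPC libraries were above both ECsXAV libraries (24.4%).

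The ratios of the members differed by level, with exceptions on both sides: the abundant TYMS and RRM1 had ratios of 1.43 and 1.47, and the weak BRCA1 had 1.04. All 15 members under a mean of 1 FPKM had a lower mean in CPC, and their median ratio of ECsXAV over CPC was 2.43. The 4113 genes of the whole table with a mean of 0.05 to 1 FPKM had a median ratio of 1.06. The share of those 4113 genes with a lower mean in CPC was not computed. In 11 of these 15 both ECsXAV libraries were above both CPC libraries, as in 28.7% of the genes at this level, and in 10 the ratio was over 2-fold, as in 21.1%. Among the 20 members with a mean of 1 to 5 FPKM the median ratio was 1.17, among the 11 at 5 to 10 FPKM it was 1.09, and among the 10 at 10 FPKM and over it was 1.11. The summed FPKM of all 56 members was 330 and 314 in the ECsXAV libraries and 286 and 303 in the CPC libraries, a ratio of 1.09, since this sum is carried by the abundant members. Adjusted p-values were not obtained for the 15 in this fit. In a fit chosen after the data were seen, with 0.1 added and a minimum mean of 0.1 FPKM, 54 members were tested, TK1 was again the only one past the criterion (1.66% of the 15662 genes tested there passed as higher in ECsXAV), and 12 had an unadjusted p under 0.05 as higher in ECsXAV (10.9%).

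**Figure D1:**
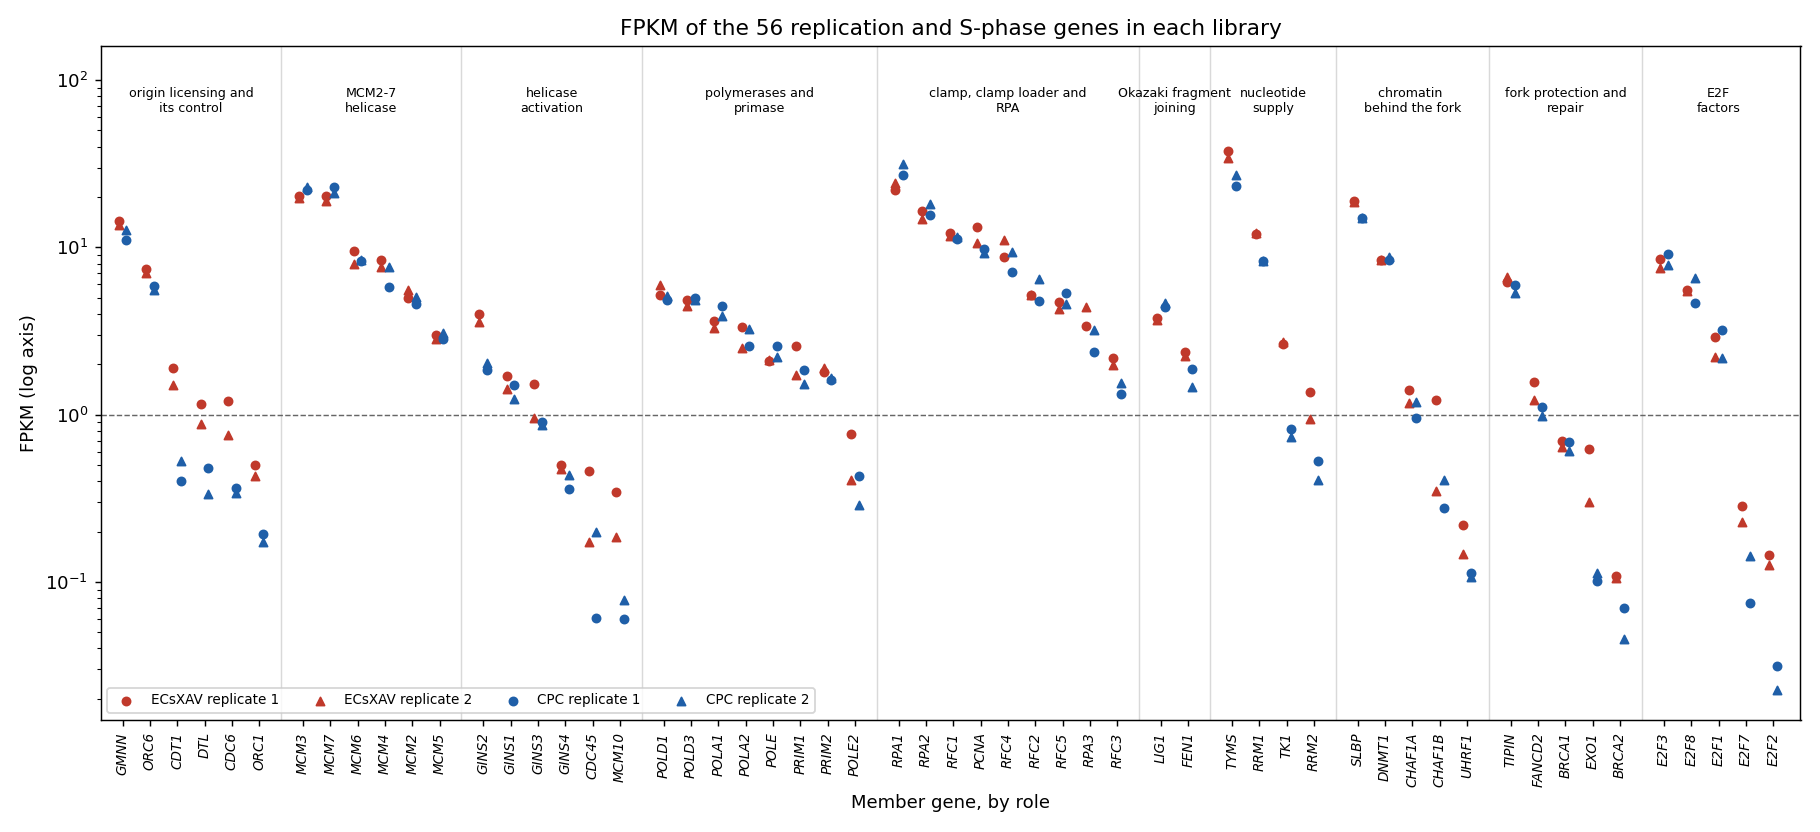
FPKM on a log axis of each of the 56 members in the 4 libraries, ordered by role and by level within a role. Red marks are ECsXAV and blue marks CPC, circles are replicate 1 and triangles replicate 2, and the dashed line is the filter at 1 FPKM. The marks of MCM3, DNMT1 and E2F3 lie close together, while those of TK1, CDT1, CDC6, EXO1 and E2F2 separate by group.

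**Figure D2:**
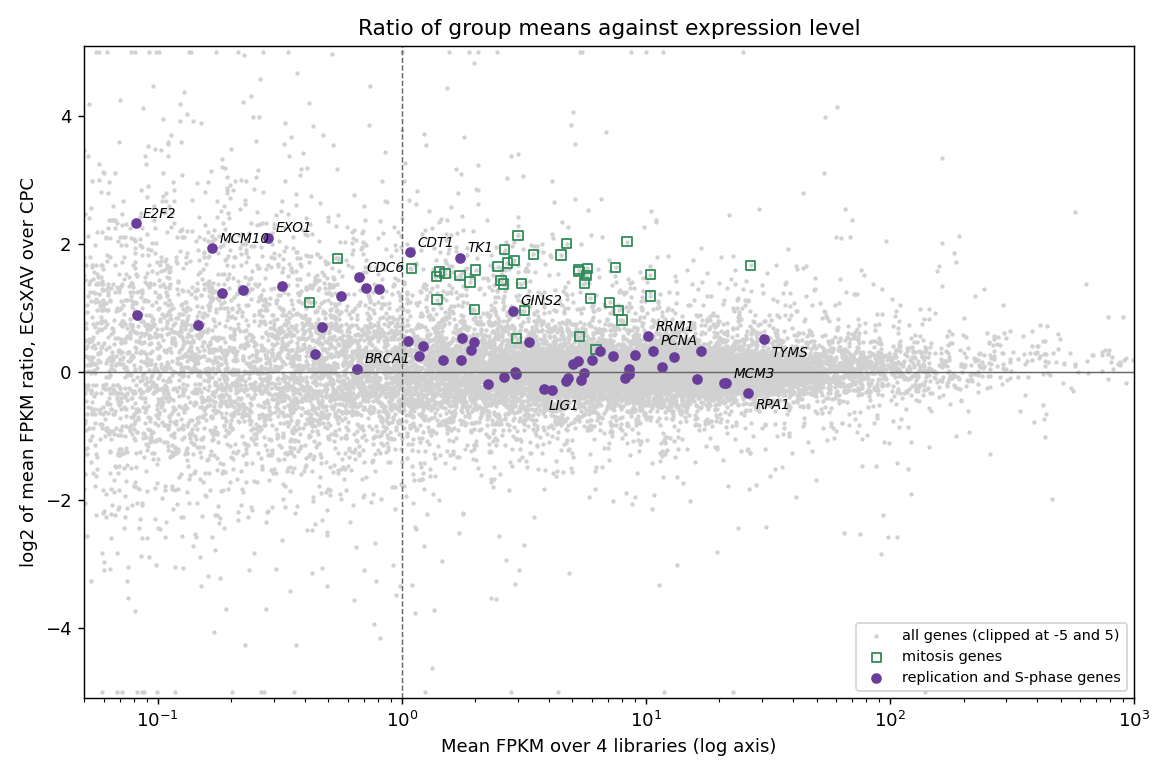
Mean FPKM over the 4 libraries (log axis) against the log2 ratio of group means, ECsXAV over CPC. Purple points are the 56 members, green squares 40 mitosis genes and grey points all genes with a mean of at least 0.05 FPKM. The 10 members at 10 FPKM and over have ratios of 0.795 to 1.47, and the 15 members under 1 FPKM have ratios of 1.04 to 5.03.

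Nucleotide supply was the role with the lowest median difference, -0.51 over its 3 tested genes. All 4 of its genes were higher in both ECsXAV libraries than in both CPC libraries. So were 25.4% of all tested genes and 28.7% of genes at 0.05 to 1 FPKM. TK1, thymidine kinase of the salvage pathway, had 2.66 and 2.72 FPKM in ECsXAV and 0.821 and 0.731 FPKM in CPC. Its ECsXAV libraries were nearly equal and lay far above the CPC libraries, with a ratio of 3.46. The log2 difference was -1.05 (standard error 0.14, 95% interval -1.41 to -0.70, limma adjusted p = 0.0389). The gene lies on chromosome 17 from 76170172 to 76183314 (GRCh37, minus strand), and about 77 and 38 fragments stood behind its ECsXAV values and 21 and 16 behind its CPC values. The call was lost when the replicate number was added as a block (limma adjusted p = 0.070) and without the filter on low values (limma adjusted p = 0.0707). It was kept when short RNA genes, such as those of microRNAs, were left out of the fit (limma adjusted p = 0.00385). With these left out and the block added it was kept too (limma adjusted p = 0.00275). Without any one of the 4 libraries the log2 difference ran from -1.09 to -1.02.

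RRM1, the large subunit of ribonucleotide reductase, had 12.1 and 12.2 FPKM in ECsXAV and 8.25 and 8.26 FPKM in CPC. Within each group its libraries differed by far less than the groups did, and the log2 difference was -0.51 (standard error 0.10, limma adjusted p = 0.0854). RRM2, the small subunit of the same enzyme, whose protein is made in S phase, was near 1 FPKM, at 1.36 and 0.942 in ECsXAV and 0.526 and 0.407 in CPC, a ratio of 2.46. The ratio of RRM2 was thus further from 1 than the 1.47 of RRM1. TYMS, thymidylate synthase, was the most abundant of the 56, at 37.4 and 34.3 FPKM in ECsXAV and 23.3 and 27.0 FPKM in CPC (log2 difference -0.50, standard error 0.12, limma adjusted p = 0.13). The 3' part of TYMS is shared with the antisense gene ENOSF1, whose exons cover 60.0% of the canonical TYMS transcript in GENCODE, and the study's methods state strand use for its separate counts but not for these FPKM, so whether reads of the pair were kept apart in the FPKM is not known here.

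All 6 origin licensing genes were higher in both ECsXAV libraries than in both CPC libraries (an order that 25.4% of tested genes and 28.7% of genes at 0.05 to 1 FPKM also had), none of the 3 tested passed the criterion, and 3 were below the filter. CDT1, which brings MCM2-7 to the origin, had 1.90 and 1.49 FPKM in ECsXAV and 0.40 and 0.527 FPKM in CPC. The ratio was 3.66 and the log2 difference -0.88 (standard error 0.17, limma adjusted p = 0.0765). CDC6, its partner in loading, had 1.2 and 0.759 FPKM in ECsXAV beside 0.365 and 0.338 FPKM in CPC. DTL, the substrate receptor of the ubiquitin ligase that removes CDT1 in S phase, had 1.16 and 0.878 beside 0.482 and 0.336 FPKM. The ratios of CDC6 and DTL were 2.79 and 2.49. ORC1, the origin recognition subunit that cycles, had 0.503 and 0.427 FPKM beside 0.194 and 0.173 FPKM, a ratio of 2.54.

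The other 2 licensing genes were abundant and differed less. ORC6 had 7.44 and 7.01 FPKM in ECsXAV and 5.91 and 5.56 FPKM in CPC. GMNN, which encodes geminin, the inhibitor that binds CDT1, had 14.4 and 13.7 FPKM in ECsXAV and 11.1 and 12.8 FPKM in CPC (log2 difference -0.22, standard error 0.12, limma adjusted p = 0.425). With a ratio of 1.17, GMNN was much closer to equal in the groups than CDT1, its target.

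All 6 genes of the MCM2-7 helicase were tested, none passed, and their median difference was -0.013. MCM3 was the most abundant, at 20.3 and 19.7 FPKM in ECsXAV and 22.2 and 23.0 FPKM in CPC, so the CPC libraries were above the ECsXAV libraries (log2 difference 0.16, 95% interval -0.10 to 0.43, limma adjusted p = 0.480). MCM7 had the same order, with 20.2 and 19.0 FPKM beside 23.0 and 21.2 FPKM. The most negative difference was that of MCM4, with 8.37 and 7.59 FPKM beside 5.83 and 7.58 FPKM, where the upper CPC library almost reached the lower ECsXAV library (log2 difference -0.23, standard error 0.15, limma adjusted p = 0.503). MCM5 was the least abundant of the ring and the most alike, at 2.99 and 2.85 FPKM beside 2.84 and 3.09 FPKM, with a 95% interval of its log2 difference from -0.31 to 0.34. Per length, then, the 6 subunits of 1 ring spanned from a mean of 2.94 FPKM for MCM5 to 21.3 FPKM for MCM3, and this spread among subunits was wider than any difference between the groups.

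Of the 6 genes that activate the helicase, 3 were tested and none passed the criterion. GINS2 had 3.97 and 3.59 FPKM in ECsXAV and 1.86 and 2.03 FPKM in CPC, with no overlap and a ratio of 1.95 (log2 difference -0.70, standard error 0.13, limma adjusted p = 0.0736). GINS1, another subunit of the same 4-protein complex, had 1.71 and 1.43 FPKM beside 1.5 and 1.25 FPKM, and its groups overlapped (log2 difference -0.12, standard error 0.16, limma adjusted p = 0.757). GINS3 had 1.52 and 0.957 FPKM beside 0.905 and 0.863 FPKM, and GINS4 stayed below the filter, with 0.497 and 0.471 beside 0.357 and 0.436 FPKM. Within GINS the ratio of ECsXAV over CPC therefore ran from 1.14 for GINS1 to 1.95 for GINS2, and these subunits were not tested against each other.

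MCM10, which is needed for the helicase to unwind, had 0.343 and 0.187 FPKM in ECsXAV beside 0.0599 and 0.0782 FPKM in CPC. About 32 and 8 fragments stood behind the ECsXAV values and 5 and 5 behind the CPC values, so the ratio of 3.84 is imprecise. CDC45 had 0.460 and 0.172 FPKM beside 0.0609 and 0.199 FPKM, and its groups overlapped, since the upper CPC library was above ECsXAV replicate 2.

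Of the 8 polymerase and primase genes, 7 were tested, none passed, and the median difference was 0.0051. POLD1, the catalytic subunit of polymerase δ, was the most abundant, at 5.22 and 5.99 FPKM in ECsXAV and 4.84 and 5.09 FPKM in CPC (log2 difference -0.14, standard error 0.12, limma adjusted p = 0.602). The polymerase α subunits POLA1 and POLA2 did not move together: POLA1 had 3.65 and 3.29 FPKM beside 4.44 and 3.87 FPKM, with CPC above ECsXAV, while POLA2 had 3.34 and 2.50 FPKM beside 2.58 and 3.26 FPKM and the 95% interval of its log2 difference ran from -0.45 to 0.46. PRIM1, the catalytic subunit of primase, had the largest difference among the tested genes of this role, -0.21 (standard error 0.19, limma adjusted p = 0.620), from 2.58 and 1.72 FPKM beside 1.86 and 1.53 FPKM. POLE2, a small subunit of polymerase ε, was below the filter, at 0.762 and 0.405 FPKM beside 0.428 and 0.286 FPKM, whereas the catalytic subunit POLE had 2.09 and 2.12 FPKM beside 2.56 and 2.22 FPKM. In GENCODE, exons of other entries on the same strand cover 55.8% of the canonical transcript of POLA2 and 49.7% of that of PRIM2, so the values of these 2 genes are less certain.

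All 9 genes of the clamp, its loader and RPA, the protein that coats single-stranded DNA, were tested, and none passed. RPA1 had the highest level, 22.2 and 24.3 FPKM in ECsXAV and 26.9 and 31.5 FPKM in CPC, and the most positive difference of the 41 tested members (0.32, 95% interval -0.014 to 0.65, limma adjusted p = 0.293). RPA3, the small subunit of the same trimer, had the opposite order, 3.37 and 4.37 FPKM beside 2.35 and 3.21 FPKM, with a difference of -0.37 (standard error 0.19, limma adjusted p = 0.390). RPA2 lay between them, at 16.4 and 14.8 FPKM beside 15.5 and 18.2 FPKM, with overlapping groups. The ratios of the 5 loader subunits ran from 0.908 for RFC5, with 4.73 and 4.26 FPKM beside 5.30 and 4.60 FPKM, and 0.921 for RFC2 to 1.45 for RFC3, with 2.19 and 1.98 FPKM beside 1.33 and 1.55 FPKM. RFC1, the large subunit, had the smallest difference of the 5, with 12.2 and 11.8 FPKM beside 11.2 and 11.5 FPKM (log2 difference -0.070, standard error 0.10, limma adjusted p = 0.785).

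PCNA, the sliding clamp, had 13.3 and 10.6 FPKM in ECsXAV and 9.72 and 9.25 FPKM in CPC (log2 difference -0.30, 95% interval -0.67 to 0.076, limma adjusted p = 0.372). The transcript table splits PCNA into 2 transcripts. The transcript listed as NM_182649 carried all but a trace of the ECsXAV values, at 13.3 and 10.6 FPKM, and had 7.56 and 7.05 FPKM in CPC. The other, NM_002592, was listed at 0.000522 and 0.00139 FPKM in ECsXAV and at 2.16 and 2.20 FPKM in CPC. RFC1 showed a like split, since NM_001204747 had 0.0196 and 0.0125 FPKM in ECsXAV and 6.72 and 3.52 FPKM in CPC, while its other transcript, NM_002913, had 12.2 and 11.7 FPKM beside 4.51 and 8.02 FPKM. These splits are estimates from transcripts that share most of their sequence, and they were not tested. In other members the estimate moved between replicates of 1 group: of the 3 transcripts of POLE2, the one listed as NM_002692 had 0.762 FPKM in ECsXAV replicate 1 and 3.53e-10 FPKM in ECsXAV replicate 2.

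**Figure D3:**
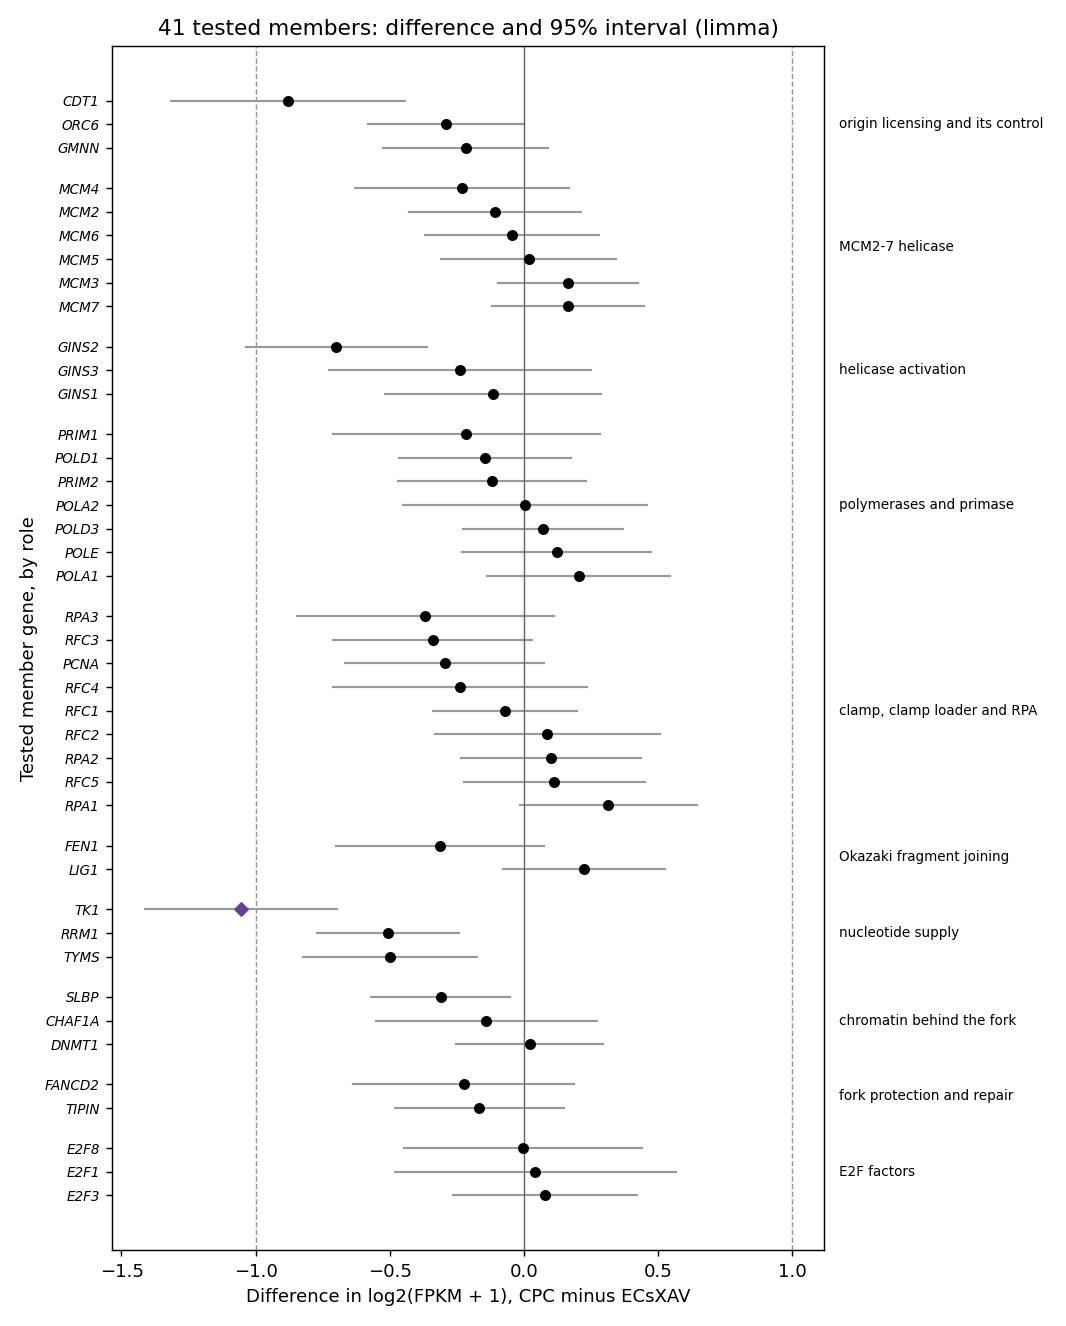
Difference in log2(FPKM + 1), CPC minus ECsXAV, of the 41 tested members by role, with the 95% interval from limma. Dashed lines mark a 2-fold change, and the purple diamond is TK1, the member past the criterion, while the 6 MCM2-7 genes lie between -0.23 and 0.17.

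The 2 enzymes that finish Okazaki fragments, the short pieces of the lagging strand, had opposite orders. FEN1, the flap endonuclease, had 2.35 and 2.24 FPKM in ECsXAV and 1.86 and 1.46 FPKM in CPC (log2 difference -0.31, standard error 0.15, limma adjusted p = 0.365). LIG1, the ligase, had 3.80 and 3.66 FPKM beside 4.39 and 4.66 FPKM (log2 difference 0.22, standard error 0.12, limma adjusted p = 0.404). Neither pair of groups overlapped, and neither difference passed the test.

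Of the 5 genes that rebuild and mark chromatin behind the fork, 3 were tested and none passed. SLBP, which binds the stem-loop of histone mRNAs, had 18.8 and 18.8 FPKM in ECsXAV and 15 and 14.9 FPKM in CPC. The replicates were nearly equal and the groups did not overlap (log2 difference -0.31, standard error 0.10, limma adjusted p = 0.20). DNMT1, the maintenance DNA methyltransferase, had 8.43 and 8.44 FPKM beside 8.36 and 8.81 FPKM, and the 95% interval of its log2 difference ran from -0.25 to 0.30. UHRF1, which brings DNMT1 to newly copied DNA, was far lower, at 0.220 and 0.146 FPKM beside 0.113 and 0.107 FPKM. CHAF1B, a subunit of the chromatin assembly factor CAF-1, rested on 1 library: it had 1.22 FPKM in ECsXAV replicate 1 and 0.347 FPKM in ECsXAV replicate 2, beside 0.275 and 0.409 FPKM in CPC.

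Among the genes of fork protection and repair, 2 of 5 were tested and none passed. TIPIN, a part of the fork protection complex, had 6.20 and 6.69 FPKM in ECsXAV and 5.98 and 5.30 FPKM in CPC (log2 difference -0.17, standard error 0.12, limma adjusted p = 0.539). FANCD2, the Fanconi anemia protein that is ubiquitinated at stalled forks, had 1.56 and 1.23 FPKM beside 1.11 and 0.982 FPKM (log2 difference -0.22, standard error 0.16, limma adjusted p = 0.528). EXO1, an exonuclease that resects DNA ends, had the highest ratio of this role, 4.29, from 0.621 and 0.301 FPKM beside 0.101 and 0.114 FPKM, with about 44 and 10 fragments beside 6 and 6. BRCA1 had the lowest ratio of the 15 members below the filter, 1.04, with 0.696 and 0.642 FPKM beside 0.689 and 0.602 FPKM, while BRCA2 had 0.109 and 0.105 FPKM beside 0.0698 and 0.0456 FPKM. BRCA1 was thus a weakly expressed member with nearly equal groups.

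Of the 5 E2F factors, 3 were tested and none passed. E2F3, an activator, was the most abundant, at 8.46 and 7.49 FPKM in ECsXAV and 9.16 and 7.82 FPKM in CPC (log2 difference 0.078, standard error 0.13, limma adjusted p = 0.815). E2F1, another activator, had 2.93 and 2.20 FPKM beside 3.21 and 2.18 FPKM, so its replicates differed more than its groups. E2F8, a repressor, had 5.59 and 5.49 FPKM beside 4.65 and 6.54 FPKM, and its log2 difference of -0.0032 (95% interval -0.45 to 0.44) changed sign with the scaling. By contrast E2F7, the repressor most like E2F8, had 0.286 and 0.228 FPKM beside 0.0752 and 0.143 FPKM, and E2F2, an activator, had 0.145 and 0.126 FPKM beside 0.0313 and 0.0227 FPKM. The ratio of E2F2, 5.03, was the highest of the 56, on about 15 and 6 fragments beside 3 and 2.

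E2F factors bind motifs close to the start of many S-phase genes, and CCAAT boxes, bound by NF-Y, lie near the start of many cell cycle genes. Both were searched on both strands in RefSeq promoter windows (GRCh38.p14, 250 bases before to 50 after the start), which held 49 of the 56 members. Windows were not found for MCM4, MCM5, GINS4, POLD3, RPA2, RPA3 and E2F8. The E2F motif was taken as TTTCCCGC, TTTGGCGC, TTTCGCGC or TTTGCCGC, and a motif on one strand can overlap one on the other. It was in a window of 27 of the 49 members, 55.1%, beside 6.48% of the tested genes that had a window and 3.31% of all 35116 windows. CCAAT was in a window of 29 of the 49, 59.2%, beside 43.3% of these tested genes. Among tested members, the median difference was -0.11 over the 21 with the E2F motif and -0.18 over the 14 without it. TK1, RRM1 and RRM2 held no match to these E2F letters, and each held at least 1 CCAAT.

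Sequences are printed 5' to 3' on the strand of the gene, with E2F motifs and CCAAT boxes (or their reverse complements) in capitals, and their places in GRCh37 were found by an exact match. TK1 is shown as the member past the criterion, by 29 bases around each of its 2 CCAAT boxes and not by its whole window. Both sites lie inside the span that GENCODE gives for TK1, which runs to 76183314. CDT1 and GINS2 are the tested members with the largest differences, and E2F1 and MCM6 those with the smallest, among members with an E2F motif and no annotated exon in the 250 bases before the start, which are printed whole. The TK1 sites lie at chr17:76183194-76183222 and chr17:76183163-76183191, GINS2 at chr16:85722561-85722810, E2F1 at chr20:32274192-32274441 and MCM6 at chr2:136634014-136634263 on the minus strand, and CDT1 at chr16:88869947-88870196 on the plus strand.
TK1 first site: ggccgggcgctgATTGGccccatggcggc
TK1 other site: ggccggctcgtgATTGGccagcacgccgt
CDT1: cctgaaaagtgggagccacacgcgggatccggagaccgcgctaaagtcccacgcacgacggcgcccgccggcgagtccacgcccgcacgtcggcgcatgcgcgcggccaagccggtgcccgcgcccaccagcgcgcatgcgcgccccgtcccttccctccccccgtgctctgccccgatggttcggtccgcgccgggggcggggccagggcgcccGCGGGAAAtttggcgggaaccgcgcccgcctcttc
GINS2: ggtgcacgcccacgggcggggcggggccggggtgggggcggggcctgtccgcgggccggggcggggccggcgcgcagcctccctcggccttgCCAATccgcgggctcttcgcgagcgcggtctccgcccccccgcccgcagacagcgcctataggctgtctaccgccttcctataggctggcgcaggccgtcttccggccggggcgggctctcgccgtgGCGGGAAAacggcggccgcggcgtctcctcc
E2F1: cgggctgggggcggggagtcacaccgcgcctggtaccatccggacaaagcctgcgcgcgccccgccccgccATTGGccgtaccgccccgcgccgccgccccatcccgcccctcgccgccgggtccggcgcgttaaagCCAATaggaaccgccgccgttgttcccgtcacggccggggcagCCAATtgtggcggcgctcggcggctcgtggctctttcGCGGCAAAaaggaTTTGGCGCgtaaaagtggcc
MCM6: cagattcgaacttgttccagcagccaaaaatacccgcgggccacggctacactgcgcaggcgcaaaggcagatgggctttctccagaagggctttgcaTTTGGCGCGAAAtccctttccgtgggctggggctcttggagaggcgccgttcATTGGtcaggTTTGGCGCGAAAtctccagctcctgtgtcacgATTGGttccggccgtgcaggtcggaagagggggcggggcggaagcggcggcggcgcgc
The inverted CCAAT boxes of TK1 begin 77 and 46 bases before the start. The E2F motif of CDT1 begins 35 bases and that of GINS2 31 bases before the start, and E2F1 has motifs at 33 and 20 bases. MCM6, which had 9.45 and 7.97 FPKM in ECsXAV and 8.33 and 8.45 FPKM in CPC, holds 2 stretches in which a motif on each strand overlaps.

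**Figure D4:**
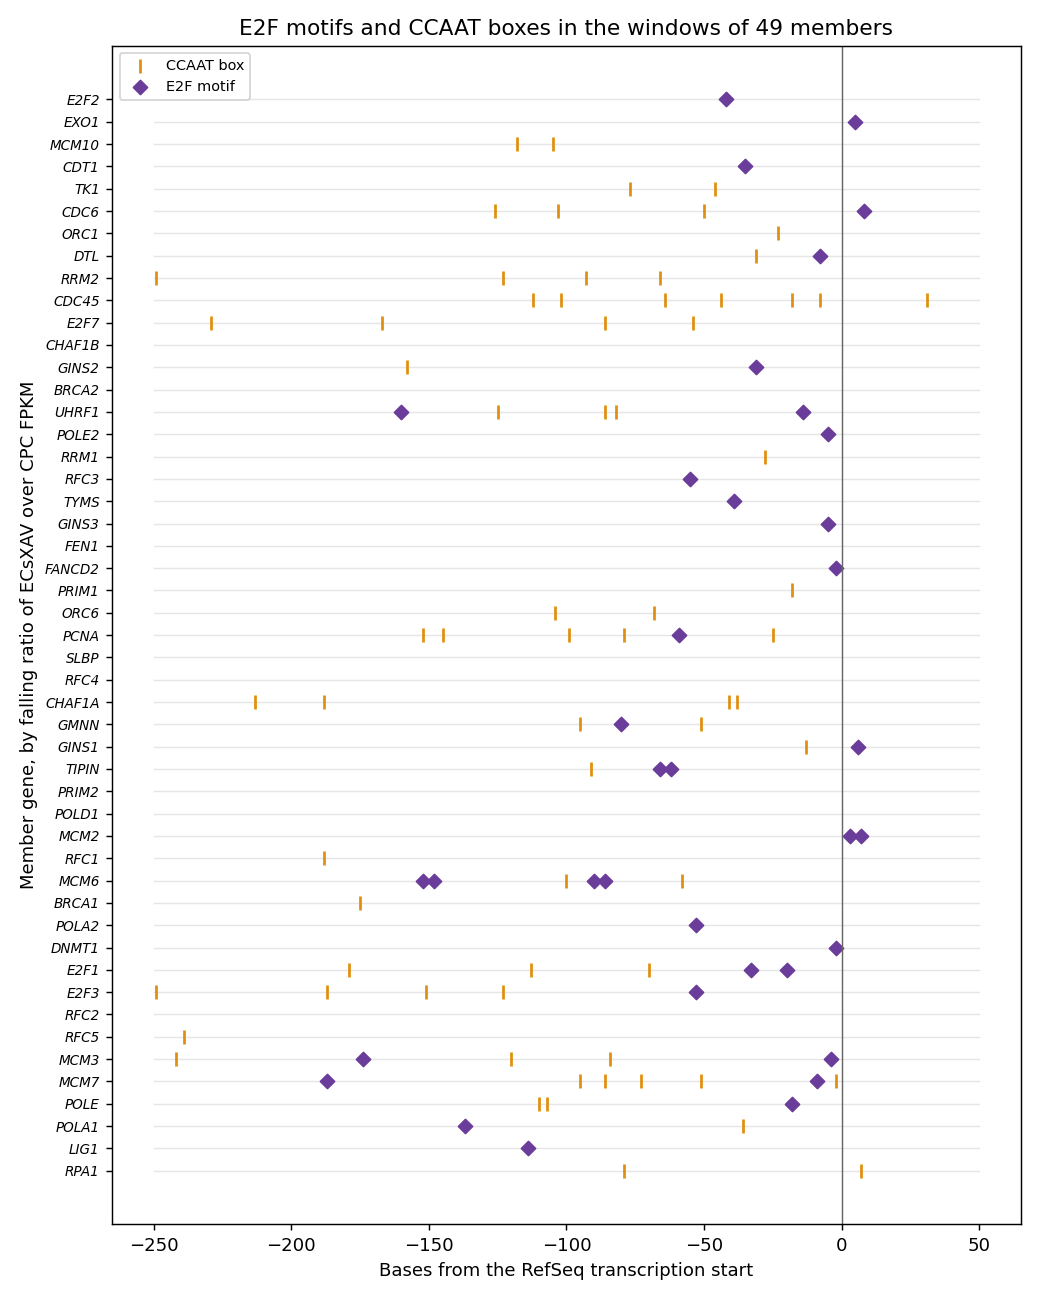
Positions of E2F motifs (purple diamonds) and CCAAT boxes (orange bars) in bases from the RefSeq start, for 49 members ordered from the highest ratio of ECsXAV over CPC at the top to the lowest at the bottom; all windows of a gene are drawn on 1 line. Diamonds stand at the top, with E2F2 at -42, as well as near the bottom, with LIG1 at -114.

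Other genes of the pathway, from lists of replication, RB and mitosis genes, were compared on the same fit. Of 52 further replication genes, 42 were tested, none passed the criterion, and the median difference was -0.077. Of the 42, 7 had an unadjusted limma p under 0.05 as higher in ECsXAV, beside 10.4% of all tested genes. Among these 7, PCLAF, ASF1B and RAD51AP1 had CPC means under 1 FPKM (0.681, 0.690 and 0.774). They reached the filter only through their ECsXAV values. Of 14 RB and E2F partners, 13 were tested and none passed, with a median of -0.073, and RB1, the pocket protein that holds E2F factors in check, had 14.6 and 12.9 FPKM in ECsXAV and 14.3 and 12.1 FPKM in CPC. The mitosis genes stood apart in size. Of 40, 38 were tested, and all 38 had a negative difference. The share of all tested genes with a negative difference was not computed, and their median difference was -0.0045. MKI67, NDC80, NCAPG, TTK, CENPA, ASPM and CENPE had CPC means of 0.539 to 0.997 FPKM. These genes reached the filter only through their ECsXAV values. Of the 38, 16 passed as lower in CPC, beside 1.44% of all tested genes. MKI67 is among the 16, so its call is of a gene admitted by the group where it is high. The median difference over the 38 was -1.0 beside the -0.12 of the tested members. TOP2A, which untangles sister chromatids, had 14.3 and 12.6 FPKM beside 3.41 and 3.13 FPKM (log2 difference -1.76, standard error 0.12, limma adjusted p = 0.0110). MKI67, the gene of the proliferation marker Ki-67, had 3.33 and 2.69 FPKM beside 1.0 and 0.990 FPKM (log2 difference -1.0, limma adjusted p = 0.0483), and CDK1, the kinase that drives entry into mitosis, had 12.4 and 10.3 FPKM beside 3.81 and 3.49 FPKM (log2 difference -1.41, limma adjusted p = 0.0208). Without a replicate block, 17 of the 38 had an adjusted p under 0.05, beside 2.89% of all tested genes. When the replicate number was added as a block, 7 of the 38 had one. The share of all tested genes in that fit was not computed. TOP2A (limma adjusted p = 0.0293) and CDK1 (limma adjusted p = 0.0388) were among the 7, while MKI67 (limma adjusted p = 0.0754) was not. With the short RNA genes left out and the block kept, the limma adjusted p was 0.00011 for TOP2A, 0.00034 for CDK1 and 0.0038 for MKI67.

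As a ratio of FPKM, the members below the filter had a median of 2.43, closer to the 2.87 of the tested mitosis genes than to the 1.14 of the tested members. The lists were not tested against each other. Of 12 inhibitors of the cycle, 9 were tested. Among the 12, 8 were higher in both ECsXAV libraries than in both CPC libraries, 3 of them below the filter. This order held for 25.4% of tested genes and 28.7% of genes at 0.05 to 1 FPKM. Another 3 were lower in both, as were 24.4% of tested genes. Only 1 of the 9 passed the criterion, beside 1.44% of tested genes that passed as higher in ECsXAV. It was CDKN1A, which encodes p21, a protein that binds both cyclin-dependent kinases and PCNA, with 135 and 174 FPKM in ECsXAV and 30.2 and 44.7 FPKM in CPC (log2 difference -2.03, limma adjusted p = 0.0297). BTG2 and GADD45A also had an adjusted p under 0.05, at under 2-fold, with log2 differences of -0.79 (limma adjusted p = 0.0451) and -0.87 (limma adjusted p = 0.0345). Both had a limma adjusted p of 0.0530 with the replicate block. With the short RNA genes left out and the block kept, the limma adjusted p was 0.0013 for BTG2 and 0.00098 for GADD45A. In ECsXAV, replicate 1 was above replicate 2 in 44 of the 56 members and in 38 of the 40 mitosis genes, and in CPC in 26 and 18. Thus 1 of the ECsXAV libraries was the higher one across most of both lists. The share of all genes with this order was not computed, so it is not known whether the order is particular to these lists.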

How the data were processed

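Poly-A RNA-seq of 4 libraries from unsorted day 14 cultures was analysed, 2 for each group, with groups and replicate numbers from the labels. The authors deposited FPKM per gene and per transcript made with Cufflinks. The submitters' processing notes name TopHat 1.3.3 and hg19, while the study's methods name another aligner for its counts. The methods leave reads with several alignments out of those counts and count by strand, but state neither for the FPKM, where shared reads could affect related or overlapping genes. The methods call the 2 libraries of a group biological replicates without saying how they were grown, so p-values measure the spread between these libraries.

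For symbols with several entries, the one with the highest mean FPKM was used. limma 3.58.1 in R 4.3.3 was run on log2(FPKM + 1) with an intensity trend over the 12398 genes with a mean of at least 1 FPKM, with Benjamini-Hochberg adjustment, after being tested on simulated data. The step of weakly expressed single-transcript genes gave approximate fragment numbers from canonical transcript lengths, which cover counting error only. Coordinates and overlaps came from GENCODE release 44 on GRCh37. Python 3.11.15 with pandas 2.3.3 was used for the tables, and matplotlib 3.10.9 for the figures.

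The members and lists were chosen with earlier results of these data known. Named members were those past the criterion and, in each role, the one with the highest FPKM and those with the largest and smallest difference, while the members below the filter and further subunits were named after their values were seen. Lists of other cell types held stromal, smooth muscle, blood, endoderm, endothelial, cardiomyocyte, pluripotent and skeletal muscle precursor markers, the latter 2 with summed FPKM of 5.81 to 8.06 and 0.443 to 0.915 per library. Alternatives covered the pseudocount, filter, scaling, variance prior, replicate block, short RNA genes, the transcript table and each library left out.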

Additional observations from a re-analysis of the deposited data

How the results depend on the processing

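TK1 kept a negative difference under every alternative that tested it. The number of members past the criterion as higher in ECsXAV, 1, and the number with an adjusted p under 0.05, also 1, both became 0 without the filter on low FPKM, with a mean FPKM of at least 5 (where TK1 was not tested), with the replicate block, and without each library in turn (0 to 0), where 1 group is left with 1 library that is assumed to vary like the other group. The number with an adjusted p under 0.05 became 3 with the robust variance prior (TK1, CDT1, GINS2), 4 with the short RNA genes left out (RRM1 added) and 5 with these left out together with the replicate block (TYMS added), and 1 passed the criterion in each of these. Calls rose over all genes too: 344, 339 and 345 genes passed the criterion in these settings, in this order, beside 266 in the main fit. The share of all genes with an adjusted p under 0.05 at any fold was not computed in these settings. The counts of 3, 4 and 5 members therefore have no background beside them. No member passed as higher in CPC under any alternative (0 to 0 without each library). The number over 2-fold higher in ECsXAV was 2 with a pseudocount of 0.1, 0 with a mean of at least 5, and 1 to 1 without each library. It was 7 in the added fit with a pseudocount of 0.1 and a mean of at least 0.1. A smaller pseudocount widens the folds of all weakly expressed genes, and the share of all genes over 2-fold was not computed in these fits. The median difference of the tested members moved from -0.12 to -0.18 with a pseudocount of 0.1 and to -0.25 in the added fit, and ran from -0.13 to -0.055 without each library, the latter without ECsXAV replicate 1. The ratio of summed FPKM ran from 1.06 to 1.12 without each library.

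Among the named members outside the left-out libraries, 287 of 289 values kept their sign. E2F8 turned to 0.0032 with quantile normalization and 0.0031 with median-of-ratios scaling, and without each library it ran from -0.21 to 0.20. Other differences that crossed 0 when a library was left out were MCM5 (-0.028 to 0.063), POLA2 (-0.15 to 0.16), E2F3 (-0.024 to 0.18) and DNMT1 (-0.012 to 0.056). The cause was not tested, other than that fewer libraries or more genes were used where the alternative says so.

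The replicate numbers are shared by the groups, but nothing says that same-numbered cultures were grown together, and with 2 pairs a pairing cannot be settled from the data. Across the 12398 tested genes the differences between replicates 1 and 2 in both groups had a Pearson r of 0.035 and a Spearman rho of 0.36, as a description over genes that are not independent. With the replicate block, 176 of all tested genes passed the criterion, beside 266 without it. With the block and the short RNA genes left out, 345 passed. Values below 0.2 FPKM rest on few fragments, so the ratios of the weakest members are imprecise one by one at this depth.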
